A study of Homo sapiens with 12 samples.

Results

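EMP1, EMP2, EMP3 and PMP22 encode a small family of membrane proteins, and their messenger RNA was followed in U937 cells given the nitric oxide-releasing prodrug JS-K. Of 19775 genes measured, 3 of these 4 had a probe set listed with their symbol alone, which gave 11 of the 54613 probe sets tested. EMP1 had 6 probe sets, EMP2 had 4 and EMP3 had 1. No probe set was listed with PMP22 alone, and PMP22 was not analysed here. EMP1 was chosen by its measured values, as the gene with the largest rise of 24 h JS-K over vehicle in these data, and the others were added as its relatives. The comparison of 24 h with vehicle is therefore given for every member as a description without a test, and EMP1 was tested only between 4 h and 90 min, a pair that shares no array with the comparison that chose it, although the fit takes its spread from all 12 arrays.

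U937 is a human leukemia line with monocyte-like features. There were 4 groups of 3 arrays, from biological replicates per the labels. The first received DMSO, the vehicle, and the others received JS-K for 90 min, 4 h or 24 h. All were grown alike, and no group carried a genetic change made by the study. The JS-K dose and the duration of DMSO exposure are not given in the sources used here. Since all times have the same vehicle arrays to be set against, JS-K and time in culture cannot be told apart. All cells belong to 1 line. By its title, the study concerned cancer cell death and cellular redox balance.

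PMP22 is best known as a protein of compact myelin in Schwann cells, where changes in its gene dosage cause inherited neuropathies. The EMP proteins are its closest relatives, span the membrane several times and belong with the claudins to a wider superfamily. EMP1 was described as an epithelial membrane protein, EMP2 is known for its links to integrins and caveolins, and EMP3 is found in leukocytes among other cells. Proteins of the family have been reported to bind the C terminus of the P2X7 receptor, an ATP-gated channel of macrophages, and to promote membrane blebbing.

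The promoter windows of the 3 measured members are shown because their base composition differs widely. Only the EMP1 window holds a match to the AP-1 motif, and whether the motif bears on the EMP1 values was not tested. EMP1 lies on chromosome 12 (13196726 to 13219941), EMP2 on chromosome 16 (10528422 to 10580598) and EMP3 on chromosome 19 (48325552 to 48330553), all protein-coding genes of RefSeq on GRCh38.p14. Each window runs from 250 bases before to 50 bases after an annotated start, 5′ to 3′ on the gene's strand, in the order EMP1 (chr12:13196476-13196775, plus strand), EMP2 (chr16:10580549-10580848, minus strand), EMP3 at its first start (chr19:48325302-48325601, plus strand) and EMP3 at its second start (chr19:48325749-48326048, plus strand). Capitals mark the AP-1 motif TGAGTCA.
EMP1: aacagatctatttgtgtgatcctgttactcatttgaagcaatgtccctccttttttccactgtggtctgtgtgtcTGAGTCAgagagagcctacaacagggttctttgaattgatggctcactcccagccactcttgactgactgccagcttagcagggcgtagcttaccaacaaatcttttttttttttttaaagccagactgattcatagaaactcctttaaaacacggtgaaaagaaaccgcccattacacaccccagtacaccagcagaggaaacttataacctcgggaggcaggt
EMP2: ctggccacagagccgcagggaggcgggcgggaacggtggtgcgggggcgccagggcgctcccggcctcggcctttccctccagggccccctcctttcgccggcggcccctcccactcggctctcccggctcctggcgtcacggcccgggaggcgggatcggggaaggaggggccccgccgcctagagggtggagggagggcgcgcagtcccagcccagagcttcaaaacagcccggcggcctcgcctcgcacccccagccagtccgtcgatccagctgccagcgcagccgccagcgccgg
EMP3, first start: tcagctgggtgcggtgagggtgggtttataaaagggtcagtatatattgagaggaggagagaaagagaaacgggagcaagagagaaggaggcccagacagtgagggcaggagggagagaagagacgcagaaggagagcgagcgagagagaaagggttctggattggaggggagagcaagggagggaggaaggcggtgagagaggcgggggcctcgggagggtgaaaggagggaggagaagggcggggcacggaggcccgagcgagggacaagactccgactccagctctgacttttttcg
EMP3, second start: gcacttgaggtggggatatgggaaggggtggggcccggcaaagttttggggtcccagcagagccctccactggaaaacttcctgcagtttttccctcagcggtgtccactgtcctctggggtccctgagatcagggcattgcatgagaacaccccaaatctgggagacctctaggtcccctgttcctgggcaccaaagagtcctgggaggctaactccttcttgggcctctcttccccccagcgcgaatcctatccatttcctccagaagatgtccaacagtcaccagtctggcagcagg

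The EMP1 window was AT-rich for a human promoter, with 44.3% GC and 4 CpG dinucleotides, at the 19.4th percentile of GC among 35116 RefSeq windows of the same length. The EMP2 window had 77.0% GC and 33 CpG, at the 93.6th percentile. The EMP3 windows had 59.3% GC with 14 CpG and 58.0% GC with 4 CpG, close to the median of 58.7% over all windows. The AP-1 motif in EMP1 began 175 bases before the start. It was searched as TGAGTCA on both strands and occurred in 4.95% of all windows. Of 4 further motifs searched on both strands, the EGR motif GCGNGGGCG matched once in EMP2 (9.43% of all windows), and TATAAA matched at 2 overlapping places on opposite strands in the first EMP3 window (11.5% of all windows). The cAMP response element TGACGTCA (1.85% of all windows) and the antioxidant response element core TGACNNNGC (13.3% of all windows) matched in none of the 4 windows. A match describes letters in the window and no measured binding.

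Each array gave 1 deposited log2 value per probe set, and between 61.5% and 62.2% of the probe sets of an array lay under 4, the mark used here for low signal. Array medians lay between 2.84 and 2.98 on 11 arrays, and 4 h replicate 2 stood apart with a median of 3.10. Several results that use it are therefore also given without it. Poly-A spikes added as controls read 3.04 in vehicle, 3.08 at 90 min, 7.02 at 4 h and 8.47 at 24 h (means of 24 probe sets), whereas the trp control stayed between 2.53 and 2.66. The spike means thus stood in the same order as those of EMP1, but vehicle (2.99 to 3.07) and 90 min (3.03 to 3.15) overlapped. The larger step in the poly-A spikes fell between 90 min and 4 h, the pair in which EMP1 was tested. Hybridization spikes averaged 9.86 in vehicle, 9.94 at 90 min, 10.11 at 4 h and 11.61 at 24 h, so both kinds were highest at 24 h. The part of the spikes in the results was not tested. In bulk RNA, a change in the share of cells that express a gene and a change in the RNA per cell cannot be told apart.

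EMP1 was near background in vehicle cells and stood higher at each later time, and the 3 arrays of every group agreed on that order. Its brightest probe set, 201324_at, read 3.12, 3.14 and 3.13 in the vehicle arrays. It read 5.37, 5.50 and 5.92 at 90 min, 7.29, 8.16 and 6.97 at 4 h, and 11.42, 11.41 and 11.34 at 24 h. The 4 groups did not overlap, and the spread was widest at 4 h, where replicate 2 was the highest. Group means were 3.13 ± 0.01 in vehicle, 5.60 ± 0.29 at 90 min, 7.47 ± 0.61 at 4 h and 11.39 ± 0.04 at 24 h (SD, n = 3 each, log2).

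The difference of 24 h minus vehicle for 201324_at was 8.25 ± 0.25 (log2, SE of the fit). Since the vehicle level was under 4, raising it to 4 gives a bound of at least 167-fold higher at 24 h. This value placed EMP1 first of 19775 genes, which is how it was chosen. Next in that order came C5AR1, the receptor for complement C5a, at 6.87 and MMP1, an interstitial collagenase, at 6.66. With vehicle levels raised to 4 the values were 7.39 for EMP1, 5.95 for C5AR1 and 6.66 for MMP1. At 90 min, EMP1 was 2.47 ± 0.25 above vehicle (at least 3.03-fold), which ranked 17 of 19775 genes. At 4 h it was 4.34 ± 0.25 above vehicle (at least 11.1-fold), which ranked 5. These comparisons share the vehicle arrays. Without 4 h replicate 2, the highest of its group, the 4 h mean of 201324_at was 7.13 instead of 7.47.

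**Figure D1:**
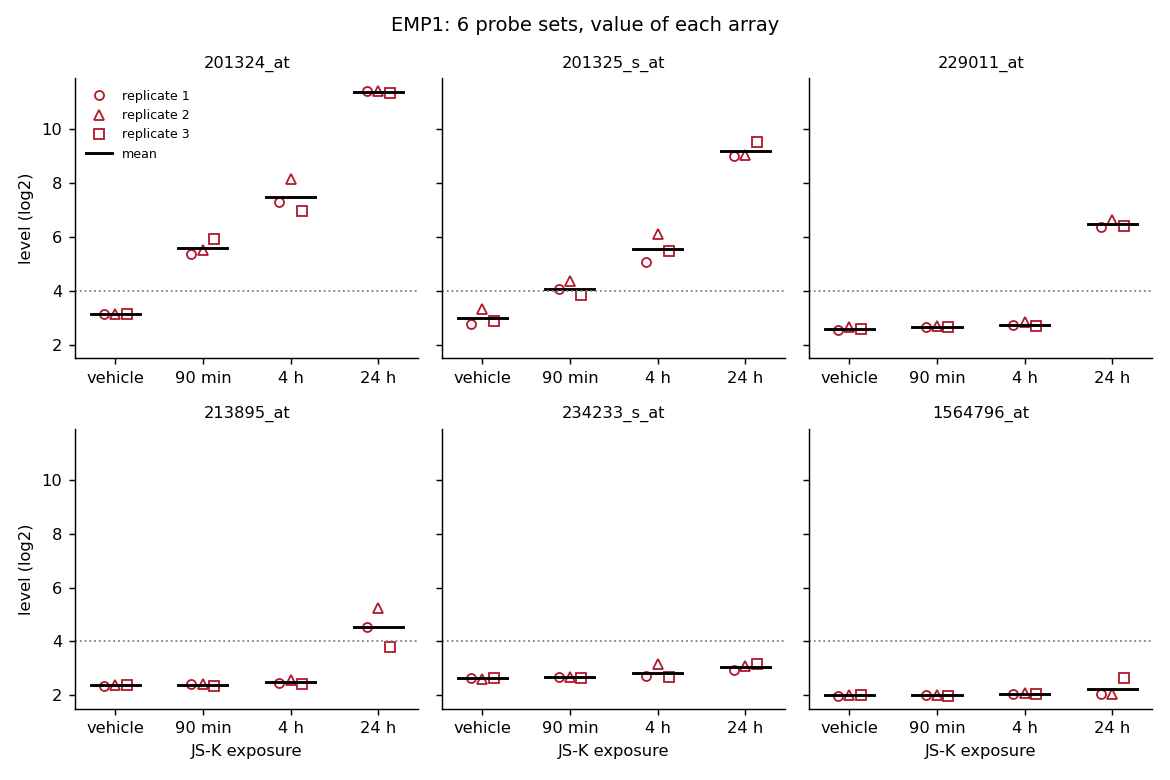
Deposited log2 value of the EMP1 probe sets on each of the 12 arrays, by group in order of time, with vehicle at the left. Point shapes give the replicate number, bars are group means and the dotted line marks the low signal level of 4. Probe set 201324_at lies at 11.39 at 24 h and 3.13 in vehicle, with the means at 90 min and 4 h between them.

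The second EMP1 probe set followed the same order. Probe set 201325_s_at read 2.78, 3.34 and 2.88 in vehicle, 4.06, 4.36 and 3.83 at 90 min, 5.06, 6.12 and 5.48 at 4 h, and 9.02, 9.06 and 9.51 at 24 h. Again the groups did not overlap. With vehicle under 4, it was at least 36.6-fold above vehicle at 24 h, at least 2.94-fold at 4 h and at least 1.06-fold at 90 min, where its mean of 4.08 lay close to the mark. Over the 12 arrays, the correlation of 201324_at with 201325_s_at was 0.980. Probe sets of 1 gene were measured on the same RNA samples and are not replicates of each other.

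The other EMP1 probe sets behaved differently at the early times. Probe set 229011_at read between 2.54 and 2.83 on all 9 arrays of vehicle, 90 min and 4 h, and then 6.35, 6.63 and 6.42 at 24 h. With vehicle and 4 h both under 4, that is at least 5.53-fold above either. Probe set 213895_at likewise stayed between 2.35 and 2.58 on the earlier arrays and read 4.55, 5.23 and 3.79 at 24 h. That is at least 1.44-fold above vehicle, with 1 of the 3 arrays still under 4. The 2 remaining probe sets stayed under 4 on every array. Probe set 234233_s_at averaged 3.06 at 24 h against 2.64 in vehicle, and 1564796_at averaged 2.24 at 24 h against 2.00 in vehicle, with a single 24 h array at 2.64 above the others at 2.04 and 2.05. Which transcripts these probe sets read was not analysed here.

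The pair of 4 h and 90 min asks whether EMP1 went on rising between the early times, without the arrays that chose it. It did by both of its brighter probe sets. With arrays at 7.29, 8.16 and 6.97 at 4 h and 5.37, 5.50 and 5.92 at 90 min, 201324_at was 1.87 ± 0.25 higher at 4 h (95% interval 1.34 to 2.41), or 3.66-fold, with an adjusted p of 0.000929. Probe set 201325_s_at was 1.47 ± 0.26 higher at 4 h, or 2.77-fold, with an adjusted p of 0.00625. Every 4 h array exceeded every 90 min array for both. The poly-A spikes also differed between these groups, with 3.08 at 90 min and 7.02 at 4 h, and their part was not tested.

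Of the 6 EMP1 probe sets, these 2 were called higher at 4 h than at 90 min and none lower, against a background of 1.89% of all probe sets called higher and 5.92% called in either direction. By the size of its rise, EMP1 ranked 13 of 19775 genes. The other 4 probe sets were not called: 229011_at differed by 0.08 ± 0.09 (95% interval -0.13 to 0.29, adjusted p 0.529), and the adjusted p of the rest lay between 0.218 and 0.814. Without 4 h replicate 2, the array that stood apart, the difference was 1.53 ± 0.15 for 201324_at (adjusted p 0.000562) and 1.19 ± 0.23 for 201325_s_at (adjusted p 0.0182).

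**Figure D2:**
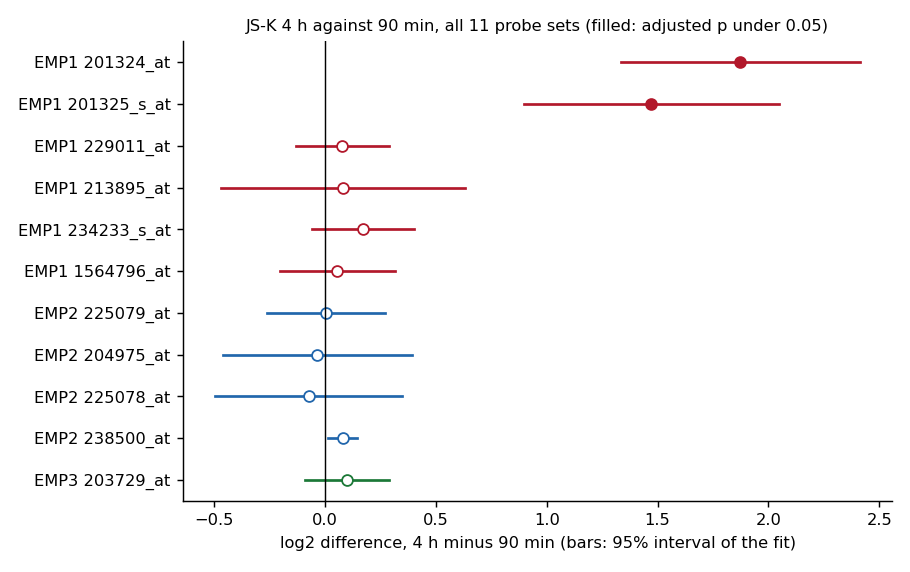
Difference of 4 h minus 90 min (log2) for each of the 11 member probe sets, with 95% intervals from the fit. The 2 brighter EMP1 probe sets lie at 1.87 and 1.47, the intervals of 8 others span 0, and that of EMP2 238500_at, which was not called (adjusted p 0.151), lies just above it.

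Between 4 h and 24 h, EMP1 was higher again at the later time on 4 of its probe sets. The difference of 24 h minus 4 h was 3.92 ± 0.25 for 201324_at (15.1-fold) and 3.64 ± 0.26 for 201325_s_at (12.5-fold). For 229011_at and 213895_at, whose 4 h means lay under 4, 24 h was at least 5.53-fold and at least 1.44-fold higher. These values use the 24 h arrays that chose EMP1 and carry no test. Against 90 min, the 24 h value of 201324_at was 5.79 ± 0.25 higher (55.3-fold).

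EMP3, by contrast, was well above the low signal mark in vehicle cells and moved by less than 1 log2 unit. Its probe set read 11.14, 10.94 and 11.08 in vehicle, 11.39, 11.29 and 11.22 at 90 min, 11.57, 11.21 and 11.43 at 4 h, and 11.75, 11.79 and 11.74 at 24 h. The 24 h arrays were the highest and agreed to within 0.05, and the 90 min and 4 h arrays overlapped. Means were 11.05 ± 0.10, 11.30 ± 0.09, 11.40 ± 0.18 and 11.76 ± 0.03 in that order (SD, n = 3 each).

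EMP3 rose at 24 h relative to both earlier JS-K times. It was 0.46 ± 0.09 higher than at 90 min (1.37-fold, adjusted p 0.00173) and 0.36 ± 0.09 higher than at 4 h (1.28-fold, adjusted p 0.0127). The call against 4 h was lost when array medians were subtracted, with a difference of 0.365 and an adjusted p of 0.077. At 4 h, EMP3 was 0.35 ± 0.09 above vehicle (1.27-fold, adjusted p 0.0172). That call was lost without vehicle replicate 2 (adjusted p 0.0635) and when array medians were subtracted (difference 0.24, adjusted p 0.199). Without 4 h replicate 2, the difference was 0.44 for 4 h against vehicle (adjusted p 0.00276). In the same fit it was 0.26 for 24 h against 4 h (adjusted p 0.0309). At 90 min the difference from vehicle was 0.25 ± 0.09 with an adjusted p of 0.155, although the arrays did not overlap. It was called without 4 h replicate 2 in the fit, at an adjusted p of 0.0448. Between 4 h and 90 min the difference was 0.10 ± 0.09 (95% interval -0.09 to 0.29, adjusted p 0.373). The described difference of 24 h minus vehicle was 0.71 ± 0.09 (1.63-fold). The poly-A and hybridization spikes were also higher at 24 h than in the other groups, and their part in the EMP3 values was not tested.

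EMP2 was above the low signal mark on 3 of its 4 probe sets in all groups, with differences no larger than 0.44 between any pair of groups. Probe set 225079_at read 7.80, 7.83 and 7.78 in vehicle, 8.10, 7.94 and 7.83 at 90 min, 8.21, 7.77 and 7.90 at 4 h, and 8.10, 7.93 and 7.89 at 24 h. The JS-K groups overlapped, and 1 of the 4 h arrays lay below all vehicle arrays. Probe set 204975_at averaged 7.87, 7.83 and 8.08 at 90 min, 4 h and 24 h, against 7.66 in vehicle, where 1 array read 7.29 and its partners 7.85 and 7.84. Probe set 225078_at averaged 7.33, 7.26 and 7.26 at those times, against 6.89 in vehicle.

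None of these 3 EMP2 probe sets was called in any of the 5 comparisons tested. The lowest adjusted p among them was 0.125, for 225078_at at 4 h against vehicle (0.37 ± 0.19, 95% interval -0.05 to 0.79). In the same comparison, quantile normalization called 225078_at (0.57, adjusted p 0.0183) and 225079_at (0.33, adjusted p 0.0461). Array weights called both as well (0.57 and 0.35, adjusted p 0.0054 and 0.00638), and 225078_at at 90 min against vehicle (0.44, adjusted p 0.0372). The fourth EMP2 probe set, 238500_at, stayed under 2.34 on every array. It was called at 4 h against vehicle with a difference of 0.10 ± 0.03 (adjusted p 0.0382), which became -0.0003 when array medians were subtracted. Described differences of 24 h minus vehicle were 0.17 ± 0.12, 0.41 ± 0.19, 0.36 ± 0.19 and 0.07 ± 0.03 for 225079_at, 204975_at, 225078_at and 238500_at.

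**Figure D3:**
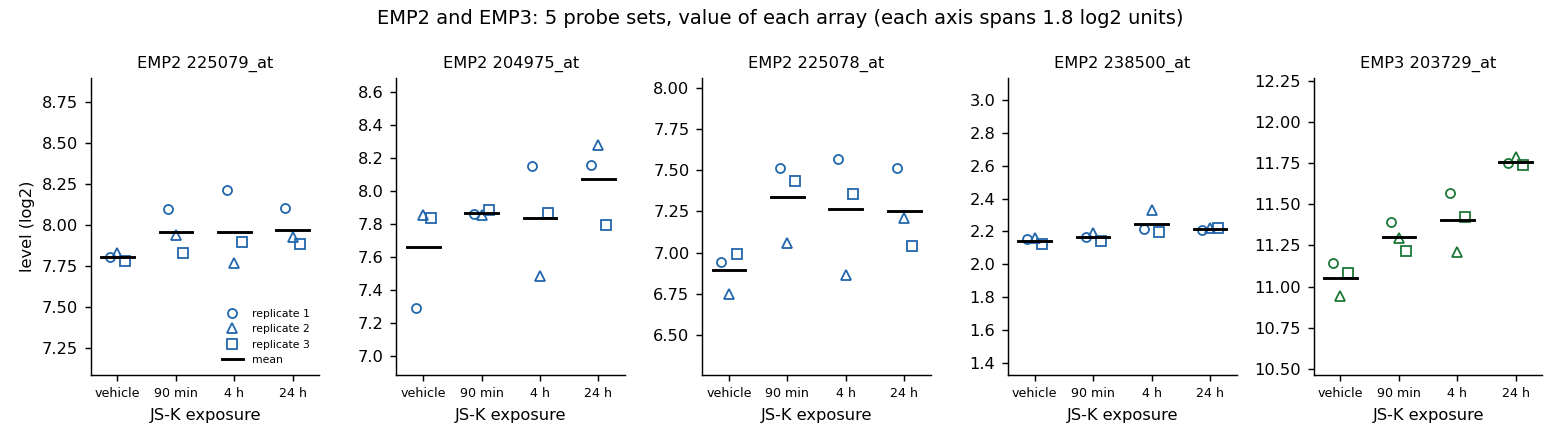
Deposited log2 value of the EMP3 and EMP2 probe sets on each array, by group in order of time, with vehicle at the left. Points are arrays and bars are group means, and all panels span the same log2 range. EMP3 averages 11.76 at 24 h and 11.05 in vehicle, and EMP2 probe set 225079_at averages 7.97 at 24 h and 7.81 in vehicle.

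Calls over the 5 probe sets of EMP2 and EMP3 are read against those of the whole table. At 90 min against vehicle, 0 of 5 were called by limma, where 5.6% of all probe sets were (2.33% higher). A missing call does not show that a gene stayed level. At 4 h against vehicle, 2 of 5 were called higher, against 24.9% in either direction and 14% higher. For 24 h against 90 min 1 of 5 was called, against 21.4% (9.79% higher), and for 24 h against 4 h 1 of 5, against 14.9% (7.66% higher). Between 4 h and 90 min 0 of 5 were called, against 5.92% in either direction (1.89% higher). Arrays that did not overlap were common in the whole table as well. At 24 h against vehicle, the comparison that chose EMP1, 10 of the 11 member probe sets had all JS-K arrays above all vehicle arrays, beside 62.5% of all probe sets. At 4 h against vehicle 8 of 11 did so, beside 54.9%, and at 90 min against vehicle 7 of 11, beside 10.9%. For 24 h against 90 min the count was 8, beside 61.5%, and for 24 h against 4 h it was 5, beside 11.4%. For 4 h against 90 min it was 5, beside 41.9%. EMP1 was chosen by its 24 h and vehicle values. Against vehicle, its probe sets gave 3 of the 7 at 90 min and 6 of the 8 at 4 h. At 24 h they gave 6 of 10 against vehicle, 6 of 8 against 90 min and 4 of 5 against 4 h. The counts are therefore a description and no test, and probe sets of 1 gene are not separate members.

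The wider claudin superfamily lay mostly under the low signal mark in these cells. Of 41 other genes of the superfamily 38 were measured, and 31 of them stayed under 4 in every group. On each array, 61.5% to 62.2% of all probe sets lay under 4. Against vehicle, 3 of 38 were called higher at 90 min, 7 at 4 h and 6 at 24 h, and none lower, beside 5.6%, 24.9% and 26.9% of all probe sets called in either direction. Those called higher were 2.33%, 14% and 12.6% of all probe sets at 90 min, 4 h and 24 h. The list medians were 0.017, 0.083 and 0.069, beside 0.013, 0.062 and 0.052 over all probe sets. These counts hung on single arrays. Without 4 h replicate 2 in the fit they were 5 at 4 h and 26 at 24 h, beside 8.46% and 51.6% of all probe sets called higher in the same fits. Without 4 h replicate 1 or 3 the count at 4 h was 14 or 20, beside 28.8% or 42.9%, and without any 1 vehicle array it was 3, beside 3.49% to 4.14%. Of the calls at 4 h, 4 fell on genes under 4 in every group, such as CACNG3, a calcium channel gamma subunit (0.08 ± 0.03, adjusted p 0.0479), which turned to -0.02 when array medians were subtracted.

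The relative that changed most was CLDND1, a claudin domain gene. It averaged 9.96 ± 0.11 at 90 min, 11.04 ± 0.07 at 4 h and 12.54 ± 0.09 at 24 h, against 9.66 ± 0.07 in vehicle (SD, n = 3 each). The differences from vehicle were 1.38 ± 0.07 at 4 h (adjusted p 3.48e-07) and 2.87 ± 0.07 at 24 h (adjusted p 2.47e-10). GSG1, a germ cell-associated gene of the superfamily, averaged 4.59 at 4 h and 5.63 at 24 h, against 3.18 in vehicle, which lay under 4. Its measured difference from vehicle was 1.42 ± 0.22 at 4 h (adjusted p 0.000962) and 2.45 ± 0.22 at 24 h (adjusted p 4.23e-06). With vehicle raised to 4 that is at least 1.51-fold at 4 h and at least 3.09-fold at 24 h. These values are of 221252_s_at, and another GSG1 probe set, 241553_at, stayed under 4 (2.34 in vehicle, 2.42 at 24 h). NKG7, a granule membrane protein of cytotoxic cells, was 0.42 ± 0.08 above vehicle at 4 h (adjusted p 0.0027) and lost that call when array medians were subtracted (0.32, adjusted p 0.0886). At 24 h, CLDN12 averaged 4.26 against 3.04 in vehicle, a difference of 1.23 ± 0.21 (adjusted p 0.000844). With vehicle raised to 4 it was at least 1.20-fold higher, and 1 of its 24 h arrays read 3.87. CLDN19 was 0.50 ± 0.14 higher at 24 h (adjusted p 0.0212), and both genes encode claudins. The CLDN19 call was lost without vehicle replicate 1 or without 24 h replicate 1 or 3 (adjusted p up to 0.082). Other CLDN19 probe sets, 1552535_at and 1554805_at, stayed under 4 (2.31 and 2.29 at 24 h). At 90 min, GSG1 (1.02, adjusted p 0.0171), NKG7 (0.41, adjusted p 0.00797) and CLDND1 (0.30, adjusted p 0.0336) were called against vehicle. With vehicle raised to 4, GSG1 was at least 1.15-fold higher. With array medians subtracted the differences stayed close to these (0.40 for NKG7 and 0.29 for CLDND1), but the adjusted p became 0.0544 for GSG1, 0.098 for NKG7 and 0.0971 for CLDND1. The GSG1 call was also lost without 3 of the 6 arrays in turn and the CLDND1 call without 4 of them.

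Genes whose products are reported to bind or act with the family moved in both directions. Of 18 such genes 16 were measured, 9 of them above 4 in some group. Against vehicle, 2 were called higher and 1 lower at 90 min, 3 higher at 4 h, and 6 higher and 2 lower at 24 h. Over all probe sets, 5.6%, 24.9% and 26.9% were called in either direction and 2.33%, 14% and 12.6% higher. The list medians were 0.013, 0.117 and 0.174, beside 0.013, 0.062 and 0.052 over all probe sets. Without 4 h replicate 2 in the fit, 10 were higher and 3 lower at 24 h, where 51.6% of all probe sets were higher. Without 4 h replicate 1 or 3 the number higher at 4 h was 6 or 7, beside 28.8% or 42.9%.

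P2RX7, which encodes the receptor reported to bind EMP proteins, was lower at 90 min and higher later on its brighter probe set. Probe set 230741_at read 6.53, 6.24 and 6.41 in vehicle, 5.65, 5.04 and 5.55 at 90 min, 7.46, 7.58 and 7.61 at 4 h, and 9.42, 9.40 and 9.16 at 24 h. No groups overlapped. It differed from vehicle by -0.98 ± 0.16 at 90 min (adjusted p 0.00289), 1.15 ± 0.16 at 4 h (adjusted p 0.00039) and 2.93 ± 0.16 at 24 h (adjusted p 6.51e-08). A dimmer P2RX7 probe set, 207091_at, averaged 3.73 at 90 min and 6.56 at 24 h, against 3.76 in vehicle. It lay under 4 at 90 min and in vehicle, where a fall could not be read.

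At 24 h, 5 further partners were higher than in vehicle. They were TGFBR2, a receptor for TGF-beta (1.73 ± 0.08, adjusted p 1.85e-08), the laminin-binding integrin subunit ITGA6 (1.34 ± 0.10, adjusted p 7.21e-07), the hyaluronan receptor CD44 (1.08 ± 0.07, adjusted p 5.34e-07), and the integrin subunits ITGB1 (1.02 ± 0.06) and ITGAV (0.58 ± 0.11). The 2 that were lower were OCLN, a tight junction protein (-0.87 ± 0.14, adjusted p 0.000593), and CANX, a chaperone of the endoplasmic reticulum (-0.49 ± 0.07, adjusted p 0.000201). The OCLN values are of 227492_at, which averaged 6.08 at 24 h against 6.95 in vehicle. The OCLN probe sets 209925_at, 231022_at and 235937_at stayed under 4, where a fall could not be read. CD44 and TGFBR2 were also called at 4 h (0.56 and 0.33), and the TGFBR2 call was lost with medians subtracted (0.23, adjusted p 0.181) and with the 6 arrays alone (adjusted p 0.103). At 90 min they were called too (0.35 and 0.30). With array medians subtracted the differences were 0.34 and 0.29 and neither was called (adjusted p 0.0849 and 0.229). The TGFBR2 call was also lost without any 1 of the 6 arrays (adjusted p 0.0765 to 0.153). The CD44 call was lost without 4 of these arrays in turn. All these values are of 1 probe set per gene, and other CD44 probe sets varied. At 90 min against vehicle, 217523_at averaged 8.05 against 7.67, and 209835_x_at averaged 8.97 against 8.95. The TGFBR2 probe set 207334_s_at lay under 4 in both groups (3.59 and 3.60).

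**Figure D4:**
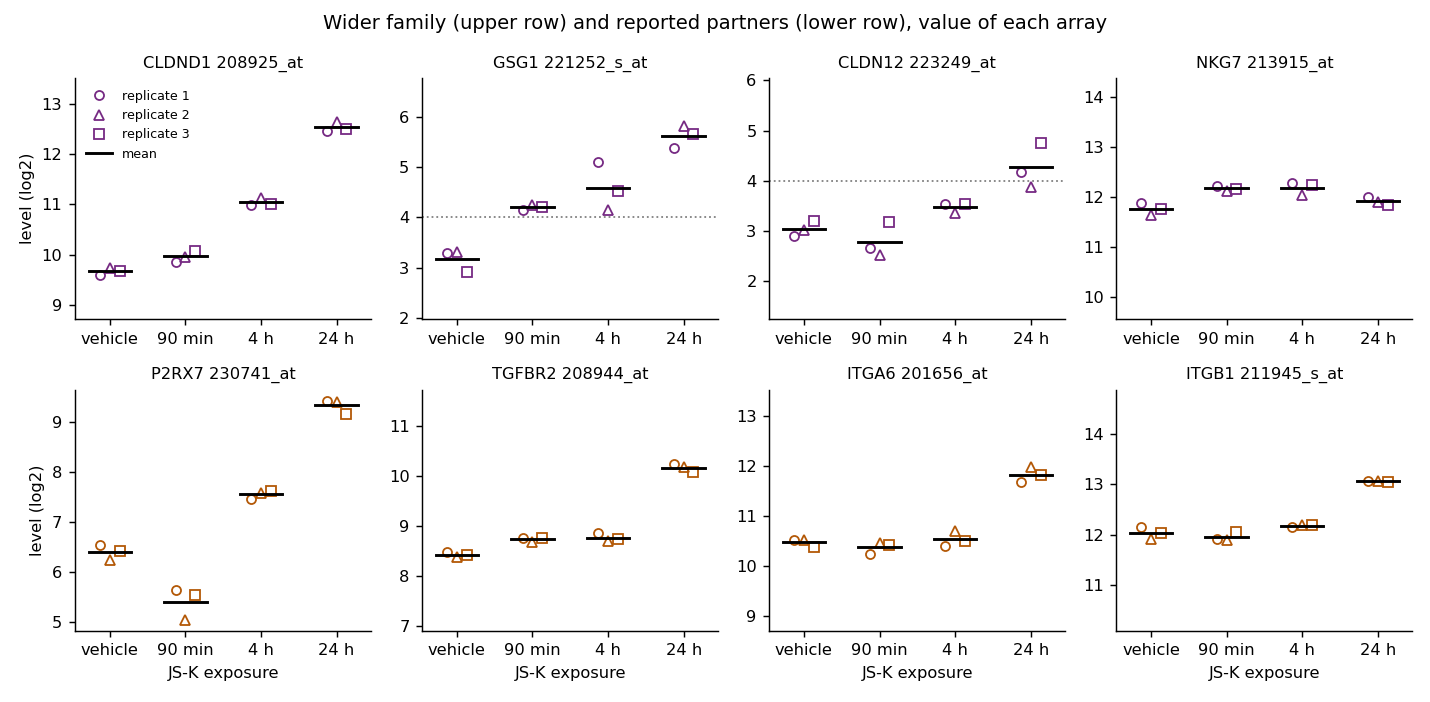
Deposited log2 values on each array of the relatives CLDND1, GSG1, CLDN12 and NKG7 (upper row) and the partners P2RX7, TGFBR2, ITGA6 and ITGB1 (lower row), by group in order of time, with vehicle at the left. Points are arrays, bars are group means, and all panels span the same log2 range. P2RX7 lies at 5.41 at 90 min against 6.40 in vehicle, and at 9.33 at 24 h.

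The genes whose values followed EMP1 most closely were found by Pearson correlation with 201324_at over the 12 arrays, among 8299 genes with a mean of at least 6 in some group. They were CLEC5A, a myeloid lectin receptor (0.994), FCER1G, the signalling chain of Fc receptors (0.994), RRM2B, a subunit of ribonucleotide reductase regulated by p53 (0.991), TMEM71 (0.990), the phosphoinositide phosphatase MTMR6 (0.990) and C5AR1 (0.990). The 12 points form 4 groups that share the order of time, and 196 of the genes had a correlation over 0.95, so EMP1 shared its time course with many genes to that degree.

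Of these 6, C5AR1 spanned the widest range, with 3.09 in vehicle, 5.42 at 90 min, 7.49 at 4 h and 9.95 at 24 h. The other 5 spanned less: TMEM71 was 4.36, FCER1G 2.77 and CLEC5A 2.30 higher at 24 h than in vehicle. For EMP3 the closest were the non-muscle myosin MYH9 (0.979), COMMD7 (0.978) and RASSF5 (0.974), and for EMP2 probe set 225079_at they were HIC2 (0.886), BAG6 (0.885) and IL27RA (0.873). Among the members, 201324_at correlated at 0.911 with EMP3 and at 0.346 with EMP2 probe set 225079_at.

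**Figure D5:**
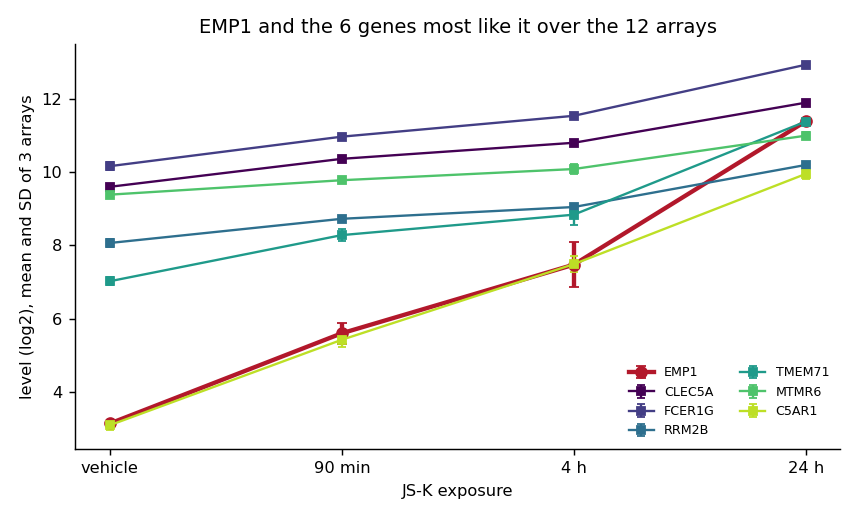
Group means with SD of 3 arrays (log2) of EMP1 probe set 201324_at and of the 6 genes most correlated with it, in order of time from vehicle at the left. EMP1 lies at 11.39 at 24 h and 3.13 in vehicle, C5AR1 at 9.95 at 24 h and 3.09 in vehicle, and the lines of the other 5 genes climb less.

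The nearest measured protein-coding genes on either side of EMP1 on chromosome 12 varied in their course. GSG1 lies 93.1 kb before EMP1 and is also of the superfamily. On 221252_s_at it had 3.18 in vehicle, 4.20 at 90 min, 4.59 at 4 h and 5.63 at 24 h. That is the same order over a smaller span, while the GSG1 probe set 241553_at stayed under 4. FAM234B, 113.3 kb before, stayed between 3.15 and 3.50. HEBP1, a heme-binding protein gene 196.5 kb before, had 9.94, 9.53, 9.95 and 10.70. GRIN2B, a glutamate receptor subunit 317.4 kb after EMP1, stayed between 2.42 and 2.53. ATF7IP, a chromatin protein gene 1145.7 kb after, had 9.39, 9.35, 9.49 and 10.25 in order of time, and PLBD1, 1283.7 kb after, stayed between 2.15 and 2.21.

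Markers of the labelled cell type were present. Of 8 measured myeloid markers, 7 exceeded 4 in some group, among them LYZ at 13.64 in vehicle and SPI1 at 7.33 at 24 h against 5.75 in vehicle, and MPO stayed between 2.37 and 2.44. The mean of the list per array lay between 8.00 and 8.15 at 90 min, 8.25 and 8.34 at 4 h, and 8.34 and 8.39 at 24 h, against 7.78 to 7.92 in vehicle. This list mean moved in the same order as EMP1, and its part in the EMP1 values was not tested. Single markers differed: by group means SPI1, PTPRC and CSF1R stood in that order. CD4 (8.24 against 8.77) and ITGAM (7.52 against 7.56) were lower at 90 min than in vehicle. LYZ was highest at 4 h (14.35, and 14.17 at 24 h). MS4A3, a marker of granulocyte precursors, was lower at 24 h, with 6.04 against 10.47 in vehicle. None of 8 epithelial markers, EPCAM, CDH1 and keratins included, exceeded 4 in any group, and their mean stayed between 2.33 and 2.56 on every array. None of 4 lymphoid markers exceeded 4. Of the markers of fibroblasts, 1 of 6 did (COL1A1, 5.09 at 24 h against 5.14 in vehicle), and of those of Schwann cells, 3 of 5 did (MBP, PRX and S100B), while SOX10 and MAG stayed under 4.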

How the data were processed

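RNA from 12 cultures of U937 cells was measured on Affymetrix arrays. The authors deposited log2 values made with GCRMA in Affymetrix Expression Console, per the submitters' processing notes, with no version given. Per the labels' protocols, Trizol RNA was labelled with biotin from random hexamers. Of 54675 probe sets, 62 controls were left out. Symbols came from the platform annotation, with 41097 probe sets listed with 1 symbol, 1801 with several and 11777 with none, and 41043 matched RefSeq.

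All 54613 probe sets were fitted without further normalization with the lmFit, contrasts.fit and trended eBayes functions of limma 3.58.1 in R 4.3.3, all 12 arrays in 1 model (8 residual and a median of 3.49 prior degrees of freedom). P-values were adjusted by Benjamini-Hochberg over all probe sets of a comparison, and a call is an adjusted p under 0.05. Differences carry SE and levels SD. The number of arrays limits the precision. P-values cover only the spread among these cultures. The fit was tested on simulated data.

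Same-numbered arrays of 90 min and vehicle were alike: deviations from the group means correlated at 0.182 to 0.290 in all 3 same-numbered pairs. Whether those cultures were made as pairs cannot be told from this. In no other pair of groups did all 3 pairs exceed 0.1.

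The members and lists were chosen with earlier results of these data known. Named are every member probe set, up to 4 called genes per list and comparison with the largest change, and the 6 genes most like EMP1 and 3 most like EMP2 and EMP3. ITGB1, ITGAV, OCLN, CANX, the dimmer P2RX7 probe set and the genes next to EMP1 were named after their values were seen. The lists hold superfamily genes, reported partners, and markers of myeloid, epithelial, Schwann, fibroblast and lymphoid cells, with the probe set of highest mean per gene. Promoter sequences are from RefSeq (GRCh38.p14). Alternatives were a constant spread, leaving out the dimmest of 3 equal parts, 1 probe set per gene, quantile normalization, subtracted medians, a replicate block, array weights, the 6 arrays compared alone and each array left out. A mean of at least 4, and leaving 4 h replicate 2 out of comparisons that do not use it, were added after seeing the data. Figures were drawn with matplotlib 3.10.9.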

Additional observations from a re-analysis of the deposited data

Results flagged for a closer look

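EMP1 differed between the early JS-K times, each set against the same vehicle arrays. The change of 201324_at from vehicle was 1.87 larger at 4 h than at 90 min (log2, adjusted p 0.000929 by limma, higher in 3 of 3 arrays), and that of 201325_s_at was 1.47 larger (adjusted p 0.00625).

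EMP3 differed between 24 h and the earlier times in the same way, by 0.46 against 90 min and by 0.36 against 4 h (adjusted p 0.00173 and 0.0127, higher in 3 of 3 arrays each). The larger EMP1 differences and the smaller EMP3 ones were not tested against each other.

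The added poly-A spikes, which belong to no comparison, averaged 8.47 at 24 h and 7.02 at 4 h, against 3.04 in vehicle. Hybridization spikes averaged 11.61 at 24 h against 9.86 in vehicle.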

How the results depend on the processing

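The EMP1 rise of 4 h over 90 min stayed called under all alternatives run, for 201324_at between 1.53 and 2.12 and for 201325_s_at between 1.03 and 1.72 (adjusted p up to 0.0188 and 0.0354). The replicate block left it called (adjusted p 0.00257 and 0.00459). Outside the comparison of 90 min with vehicle, same-numbered arrays were not all alike. In each other pair of groups at least 1 of 3 same-numbered pairs was under 0.1. Over all pairs, 17 of 36 array comparisons were best with the own number. Where same-numbered arrays were alike, at 90 min against vehicle, the block changed no call of a named gene. It gave 1299 higher and 1821 lower over the whole table. For EMP3, 4 h against vehicle fell short with medians subtracted (0.24), with the 6 arrays alone (0.35, adjusted p 0.0901) and without vehicle replicate 2, within a range of 0.26 to 0.44 over left-out arrays, and 24 h against 4 h fell short with medians subtracted (0.365). Array weights, which gave 4 h replicate 2 a weight of 0.045, called EMP3 at 90 min against vehicle (0.29) and at 4 h against 90 min (0.18). Leaving 4 h replicate 2 out of the fit also called the first of these (0.25). The causes were not tested.

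Small differences changed sign. For 4 h against 90 min, quantile normalization gave -0.0018 for EMP1 229011_at, 0.10 for EMP2 204975_at and 0.0587 for EMP2 225078_at, and medians subtracted gave -0.0132, -0.0094 and -0.0372 for EMP1 229011_at, 213895_at and 1564796_at, and -0.0875 and -0.0117 for EMP2 225079_at and 238500_at. Array weights gave 0.22 and 0.13 for EMP2 204975_at and 225078_at. For 24 h against 90 min, EMP2 225078_at was 0.0007 under quantile normalization, 225079_at was -0.0686 and 238500_at -0.0347 with medians subtracted, and 225079_at was -0.067 with array weights. For 24 h against 4 h, EMP2 225079_at was -0.0324 under quantile normalization and -0.17 with array weights, and 238500_at was 0.0073 with array weights. With medians subtracted, EMP2 238500_at was -0.0003 and CACNG3 -0.0193 for 4 h against vehicle. With arrays left out in turn, EMP2 204975_at ranged from -0.0114 to 0.35 for 4 h against vehicle and from -0.19 to 0.14 for 4 h against 90 min. EMP2 225078_at ranged from -0.22 to 0.13 for 4 h against 90 min, -0.22 to 0.0279 for 24 h against 90 min and -0.21 to 0.15 for 24 h against 4 h. EMP2 225079_at ranged from -0.12 to 0.10, -0.0494 to 0.0871 and -0.0833 to 0.14 in the same 3 comparisons, and 238500_at from -0.0551 to 0.0130 for 24 h against 4 h.

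Superfamily genes called higher against vehicle numbered 3, 7 and 6 at 90 min, 4 h and 24 h. At 4 h they numbered 3 with a constant spread, without the dimmest part, under quantile normalization or with a mean of at least 4, 2 with medians subtracted, 4 with the 6 arrays alone, 13 with 1 probe set per gene, 18 with the replicate block and 24 higher and 1 lower with array weights, and 3 to 20 over left-out arrays. At 90 min they numbered 0 with medians subtracted, 10 higher and 2 lower with array weights and 1 to 3 over left-out arrays. At 24 h they numbered 29 higher and 1 lower with array weights, 28 with the 6 arrays alone, 3 with a mean of at least 4, 26 without 4 h replicate 2 and 3 to 5 over left-out arrays. Partners called higher at 90 min (2) numbered 0 with medians subtracted, 1 with the 6 arrays alone, 5 higher and 3 lower with array weights and 0 to 1 over left-out arrays. At 4 h (3) they numbered 6 with 1 probe set per gene, 7 higher and 1 lower with the replicate block, 9 with array weights, and 3 to 7 higher and 0 to 2 lower over left-out arrays. At 24 h (6) they numbered 12 with array weights, 10 with the 6 arrays alone and 10 without 4 h replicate 2.

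Over the whole table, probe sets called higher at 4 h against vehicle (7646) numbered 2772 with a constant spread, 3117 without the dimmest part, 4124 under quantile normalization, 1452 with medians subtracted, 17633 with the replicate block, 25949 with array weights, 1581 with the 6 arrays alone (3361 lower), 2838 with a mean of at least 4 and 1904 to 23410 over left-out arrays (3835 to 7155 lower, against 5939). At 90 min against vehicle (1273 higher, 1786 lower) there were 684 and 988 with medians subtracted, 10677 and 5994 with array weights, and 834 to 956 and 954 to 1570 over left-out arrays. At 24 h against vehicle (6877 higher) there were 4275 with medians subtracted, 31317 with array weights, 29023 with the 6 arrays alone and 28185 without 4 h replicate 2. For 4 h against 90 min (1030 higher, 2203 lower) there were 1710 higher under quantile normalization, 460 higher with medians subtracted, 4361 and 3796 with array weights, 486 and 1032 with the 6 arrays alone, and 631 to 1223 and 1205 to 2629 over left-out arrays. For 24 h against 90 min, 22441 were higher with array weights and 19879 without 4 h replicate 2 (5347 in the fit of all arrays), and for 24 h against 4 h 6503 were lower with array weights (3965). With 1 probe set per gene, fewer features were tested, and the numbers higher and lower were 796 and 1111 at 90 min, 4735 and 3286 at 4 h and 3518 and 3735 at 24 h against vehicle, 658 and 1434 for 4 h against 90 min, 2889 and 3107 for 24 h against 90 min, and 2535 and 2114 for 24 h against 4 h.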
